A study of Homo sapiens with 4 samples.

Results

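Mediator is a large coactivator that carries signals from DNA-bound transcription factors to RNA polymerase II at promoters and enhancers. Its head, middle and tail modules are held together by MED14, the scaffold subunit. A separate kinase module, built from cyclin C (CCNC), CDK8 or its paralog CDK19, MED12 or MED12L, and MED13 or MED13L, binds the core reversibly and phosphorylates transcription factors and other regulators. The genes described here are those whose symbol is MED followed by a number, with or without a final L, together with CDK8, CDK19 and CCNC. The rule took 33 of the 50868 genes in the files and used no measured value. By module, 9 genes belong to the head, 9 to the middle, 1 is the scaffold, 7 belong to the tail and 7 to the kinase module.

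RNA-seq was done on Jurkat cells, an established human T-cell leukaemia line, after 24 h in 4 conditions. The cells received either the solvent DMSO or JQ1 at 0.5 μM, and each of these was given without PHA or together with PHA at 150 ng/ml. JQ1 is a small molecule that occupies the bromodomains of BET proteins, chromatin readers that bind acetylated histones. PHA, phytohemagglutinin, is a plant lectin that activates T cells. The design asked how JQ1 changed transcript levels without and with PHA stimulation. Each condition was a single library of a single line, so no difference below has a replicate check, no p-value is given, and intervals cover counting error only.

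Total counts ran from 18620954 to 19685401 per library. All 9 T-cell markers listed (CD3D, CD3E, CD3G, CD247, CD2, CD5, CD7, CD28 and LCK) were detected, and no library had more than 16 counts for any of 8 markers of other cells. With JQ1, 8 of the 9 T-cell markers were at least 1.5-fold lower without PHA and 7 with PHA, and their part in the results below was not tested. With PHA, 2 of the 9 were at least 1.5-fold higher in DMSO and 0 in JQ1. HEXIM1, a gene induced by BET inhibition, stood at 36.2 FPKM in DMSO and 109 in JQ1, and at 34.6 and 104 with PHA. The activation genes EGR1 and CD69 were higher with PHA: EGR1 had 0.491 FPKM in DMSO and 39.9 in DMSO + PHA, and CD69 had 1.05 and 20.4.

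All 33 Mediator genes were expressed in every library and passed the filter of a mean of at least 1 FPKM (fragment counts scaled by gene length and by the library's total), as did 11503 genes in all. Their counts ran from 234 to 6242 per gene and library. Together they took 0.223% of all counts in DMSO, 0.269% in JQ1, 0.221% in DMSO + PHA and 0.255% in JQ1 + PHA. The 95% Wilson score intervals were 0.221 to 0.226%, 0.267 to 0.272%, 0.219 to 0.223% and 0.253 to 0.257%. The share was therefore higher in the 2 JQ1 libraries than in the 2 DMSO libraries by more than counting error. Counts weigh long genes more. The summed FPKM of the members differed less in proportion, with 260, 293, 258 and 276 in DMSO, JQ1, DMSO + PHA and JQ1 + PHA. In bulk RNA, a lower level in each cell and fewer cells that carry the transcript cannot be told apart.

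Summed by module, the kinase module differed most in proportion, after the single gene MED14, between the libraries with and without JQ1. Its 7 genes summed to 63.7 FPKM in DMSO, 86.5 in JQ1, 60.9 in DMSO + PHA and 79.3 in JQ1 + PHA. The tail went the other way, with 39.7, 36.2, 39.9 and 36.4 FPKM in the same order. The head (57.5, 59.9, 56.6 and 55.4 FPKM) and the middle (88.4, 93.8, 88.0 and 87.7 FPKM) varied less, and MED14 alone had 10.9, 16.98, 13.1 and 17.3 FPKM.

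**Figure D1:**
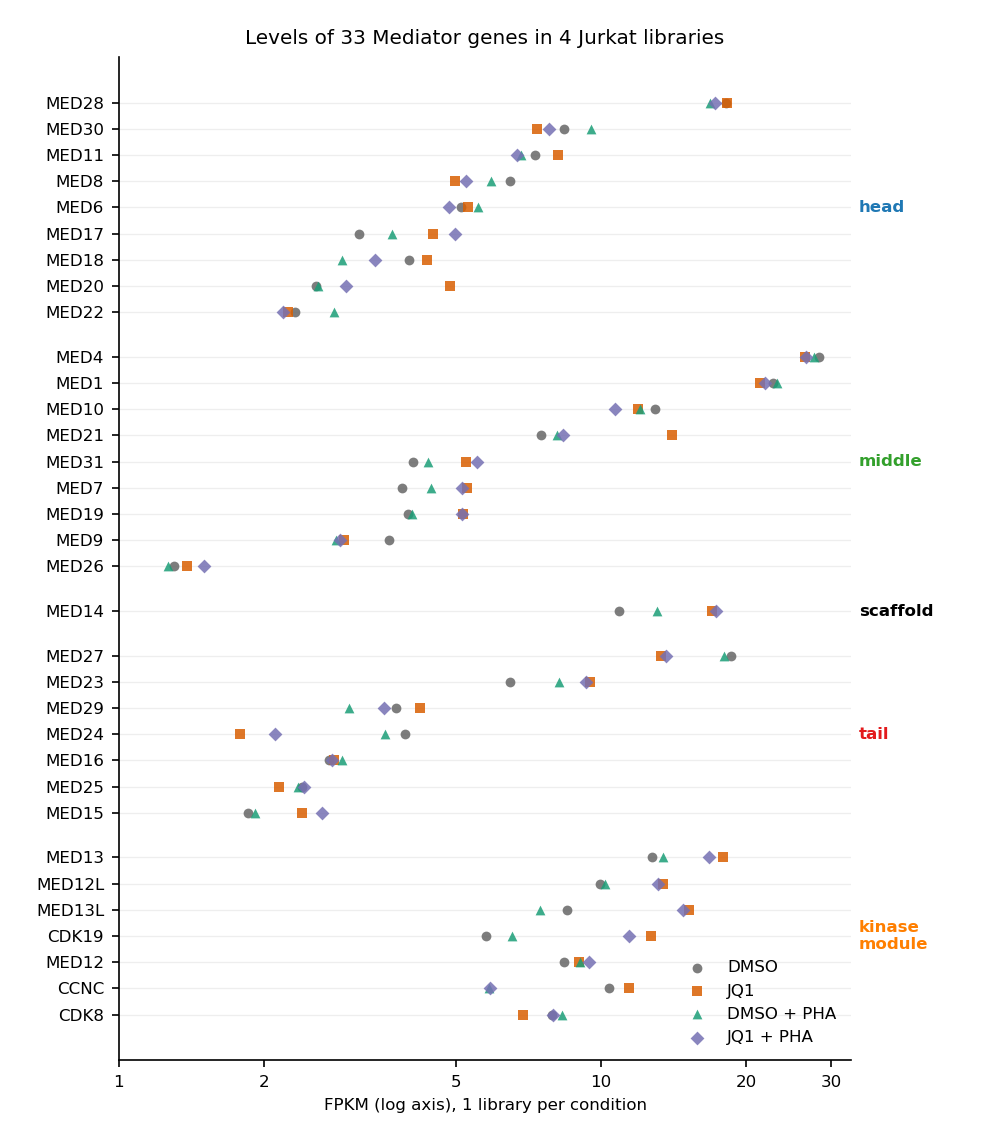
FPKM of each of the 33 Mediator genes on a log axis, 1 point per library, with genes grouped by module and ordered by mean level. The 2 libraries with JQ1 (squares and diamonds) sit to the right of the 2 without it for CDK19, MED13L, MED13, MED12L and MED14 and to the left for MED24, and the 2 libraries with PHA (triangles and diamonds) sit to the left for CCNC.

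The highest and the lowest member of each module by mean FPKM over the 4 libraries are given here, and the order differed in some libraries, as MED24 lay below MED15 in both with JQ1 and MED20 below MED22 in DMSO + PHA. In the middle module MED4, which pairs with MED9, was the highest of all members with 28.3, 26.5, 27.6 and 26.6 FPKM in DMSO, JQ1, DMSO + PHA and JQ1 + PHA, and MED26, a subunit that binds elongation factors, was the lowest with 1.30, 1.38, 1.27 and 1.503. In the head MED28 was highest, with 18.2, 18.2, 16.8 and 17.2 FPKM, and MED22, the partner of MED11, was lowest, with 2.32, 2.24, 2.79 and 2.19. In the tail MED27 was highest, with 18.6, 13.3, 18.0 and 13.7 FPKM, and MED15, a target of several transcriptional activators, was lowest, with 1.85, 2.40, 1.92 and 2.64. Of these 6 genes none reached 1.5-fold in any comparison, and MED27 and MED15 had intervals on 1 side of 0 in both JQ1 comparisons, MED27 below and MED15 above. The order of the levels rests on the length by which the FPKM were divided: it exceeded the union of the exons in GENCODE release 44 for 29 of the 33 genes, with the ratio of both lengths between 0.572 and 3.80 over the 33, and it exceeded the gene's whole span for MED22 and MED29. Comparisons of a gene with itself across libraries do not depend on that length.

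Of the 33 members, CDK19 had the largest increase with JQ1 without PHA and MED13L with PHA, and both belong to the kinase module. CDK19, the alternative catalytic kinase of the module (ENSG00000155111, chr6:110609978-110815958 in GRCh38, minus strand), had 5.79 FPKM in DMSO, 12.7 in JQ1, 6.55 in DMSO + PHA and 11.4 in JQ1 + PHA, from 881, 2017, 1043 and 1722 counts. Both libraries with JQ1 were above both without. On the scale of FPKM + 0.1, which is used for all folds below, CDK19 was 2.17-fold higher with JQ1 (log2 ratio of count shares 1.13, 95% exact interval 1.02 to 1.25), and 468 of the 11503 genes had a higher ratio. With PHA it was 1.73-fold higher (0.80, 0.69 to 0.92). The increase was smaller with PHA than without by 0.33 on the log2 scale (interval of the difference -0.49 to -0.17, counting error only).

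CDK8, the founding kinase of the module (ENSG00000132964, chr13:26254104-26405238, plus strand), differed little between the same libraries. It had 7.90 FPKM in DMSO, 6.90 in JQ1, 8.29 in DMSO + PHA and 7.96 in JQ1 + PHA, from 940, 859, 1032 and 937 counts. Its log2 ratio of count shares for JQ1 was -0.19 (-0.33 to -0.06), and in the presence of PHA it was -0.06 (-0.19 to 0.07). CDK19 therefore made up 42.3% of the summed FPKM of both kinases in DMSO and 64.7% in JQ1, and 44.1% and 59.0% with PHA. The sum itself was 13.7 FPKM in DMSO, 19.6 in JQ1, 14.8 in DMSO + PHA and 19.4 in JQ1 + PHA. CDK8 was the more abundant of the 2 on this scale in both libraries without JQ1 and CDK19 in both with JQ1. By counts without the length, CDK19 was already at 48.4% in DMSO and 50.3% in DMSO + PHA, so which kinase leads in DMSO + PHA depends on the length used.

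MED13L and MED13 tether the kinase module to the core. MED13L (ENSG00000123066, chr12:115953872-116277338, minus strand) had 8.50 FPKM in DMSO, 15.2 in JQ1, 7.46 in DMSO + PHA and 14.8 in JQ1 + PHA, from 3329, 6242, 3059 and 5727 counts. It was 1.78-fold higher with JQ1 (log2 ratio of count shares 0.84, 0.78 to 0.90) and 1.97-fold higher with JQ1 in the presence of PHA (0.98, 0.92 to 1.05). MED13 (ENSG00000108510, chr17:61942605-62065282, minus strand) had 12.8, 17.9, 13.4 and 16.8 FPKM, and its ratios stayed under 1.5-fold at 0.49 (0.43 to 0.55) and 0.32 (0.26 to 0.38). Both paralogs were higher in each library with JQ1, MED13L by more. The share of MED13L in the pair's FPKM was 40.0% in DMSO, 46.0% in JQ1, 35.7% in DMSO + PHA and 46.8% in JQ1 + PHA.

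MED12 and MED12L, which activate the cyclin C kinase, did not reach 1.5-fold. MED12L (ENSG00000144893, chr3:151085697-151437072, plus strand) had 9.96, 13.4, 10.2 and 13.1 FPKM in DMSO, JQ1, DMSO + PHA and JQ1 + PHA, and its JQ1 ratio was 0.43 (0.36 to 0.50), or 0.36 (0.29 to 0.43) in the presence of PHA. MED12 (ENSG00000184634, chrX:71118556-71142454, plus strand) had 8.37, 9.01, 9.06 and 9.42 FPKM, with JQ1 ratios of 0.11 (0.01 to 0.21) and, with PHA, 0.06 (-0.04 to 0.15). MED12L made up 54.4% of the pair's FPKM in DMSO, 59.8% in JQ1, 53.0% in DMSO + PHA and 58.2% in JQ1 + PHA. In each of the 3 paralog pairs the share of the second paralog (CDK19, MED12L, MED13L) was higher in both libraries with JQ1 than in both without. That order does not depend on the gene lengths, which are constant across libraries, while the shares themselves do.

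**Figure D2:**
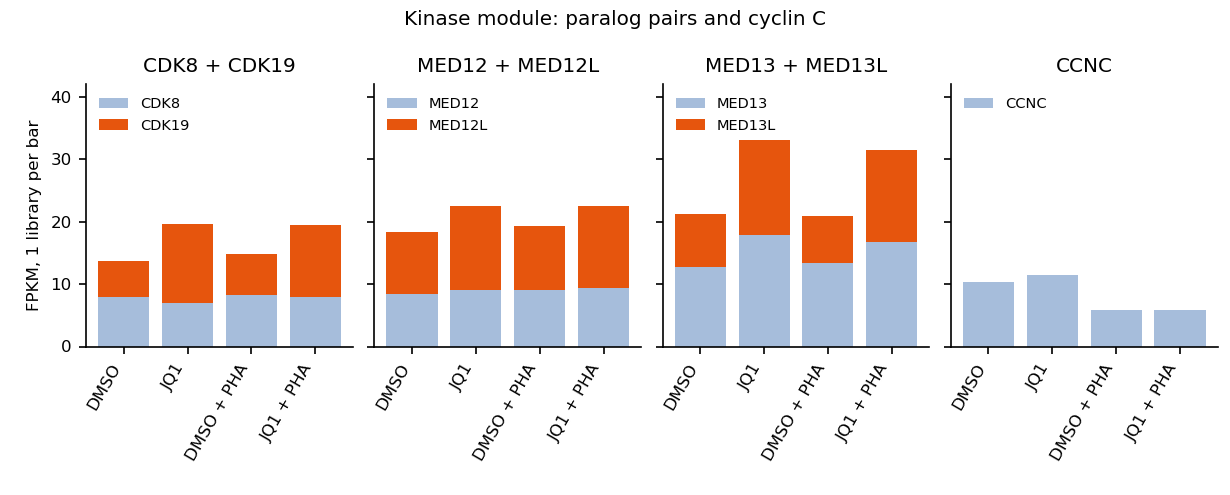
Stacked bars of FPKM, 1 library per bar, for the 3 paralog pairs of the kinase module (first paralog in light blue, second in orange) and for CCNC. The CDK19 segment goes from 5.79 in DMSO to 12.7 in JQ1 while that of CDK8 goes from 7.90 to 6.90, and the CCNC bar is lower in both libraries with PHA.

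Cyclin C, the cyclin shared by CDK8 and CDK19, was lower with PHA and within 1.5-fold with JQ1. CCNC (ENSG00000112237, chr6:99542380-99568973, minus strand) had 10.4 FPKM in DMSO, 11.4 in JQ1, 5.85 in DMSO + PHA and 5.89 in JQ1 + PHA, from 2338, 2684, 1377 and 1313 counts. Both libraries with PHA were below both without. It was 1.76-fold lower with PHA in DMSO (log2 ratio of count shares -0.83, -0.93 to -0.73) and 1.92-fold in JQ1 (-0.95, -1.05 to -0.86), and 226 and 137 of the 11503 genes had lower ratios. Its JQ1 ratios were 0.13 (0.05 to 0.22) and 0.01 (-0.10 to 0.12).

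MED24 was the only member at least 1.5-fold lower with JQ1. MED24 (ENSG00000008838, chr17:40019097-40061215, minus strand) belongs to a group of tail subunits with MED16 and MED23. It had 3.92 FPKM in DMSO, 1.79 in JQ1, 3.56 in DMSO + PHA and 2.11 in JQ1 + PHA, from 1220, 582, 1161 and 651 counts. Both libraries with JQ1 were below both without. It was 2.13-fold lower with JQ1 (log2 ratio of count shares -1.13, -1.28 to -0.99) and 1.66-fold lower with JQ1 in the presence of PHA (-0.75, -0.90 to -0.61). Short of that limit, MED27 had intervals below 0 in both JQ1 comparisons, at -0.48 (-0.63 to -0.32) and -0.40 (-0.55 to -0.25). The partners of MED24 stayed within 1.5-fold: MED16 had log2 ratios of count shares of 0.04 (-0.14 to 0.22) and -0.07 (-0.25 to 0.10), and MED23 had 0.55 (0.45 to 0.65) and 0.19 (0.10 to 0.28).

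MED14 (ENSG00000180182, chrX:40648306-40735858, minus strand), the scaffold, was 1.55-fold higher with JQ1 (log2 ratio of count shares 0.64, 0.56 to 0.71), with 2324 counts in DMSO and 3779 in JQ1. With PHA the ratio was 0.41 (0.34 to 0.48), under 1.5-fold, with 2910 counts in DMSO + PHA and 3654 in JQ1 + PHA. The level in the 2 JQ1 libraries was close, 16.98 and 17.3 FPKM, while PHA alone went with 13.1 FPKM against 10.9 in DMSO (0.26, 0.18 to 0.34).

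MED20 and MED21 were high in a single library. MED20 (ENSG00000124641, chr6:41905354-41921139, minus strand), the head subunit that pairs with MED18, had 2.56 FPKM in DMSO, 4.86 in JQ1, 2.58 in DMSO + PHA and 2.96 in JQ1 + PHA, from 399, 791, 421 and 457 counts. MED21 (ENSG00000152944, chr12:27022546-27066343, plus strand), the middle subunit that pairs with MED7, had 7.52, 14.0, 8.11 and 8.34 FPKM in the same order, from 707, 1380, 798 and 776 counts. Both stood at least 1.5-fold above each other library in the JQ1 library only, as did 0.713% of all 11503 genes (82 genes). That rule was chosen after their values were seen. The ratio with JQ1 was 1.86-fold for MED20 (0.92, 0.75 to 1.10) and 1.86-fold for MED21 (0.90, 0.77 to 1.03) without PHA, and 0.20 (0.00 to 0.39) and 0.04 (-0.10 to 0.18) with PHA. The 1.62-fold and 1.67-fold lower values of MED20 and MED21 in JQ1 + PHA against JQ1 use the same JQ1 library. Their dimer partners differed from them: MED18 had a ratio of 0.13 (-0.10 to 0.35) and MED7 of 0.44 (0.24 to 0.65) with JQ1 alone. TAF9, a general transcription factor subunit, was apart in the same library in the other direction, with 15.9 FPKM in DMSO, 7.76 in JQ1, 15.1 in DMSO + PHA and 16.9 in JQ1 + PHA.

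**Figure D3:**
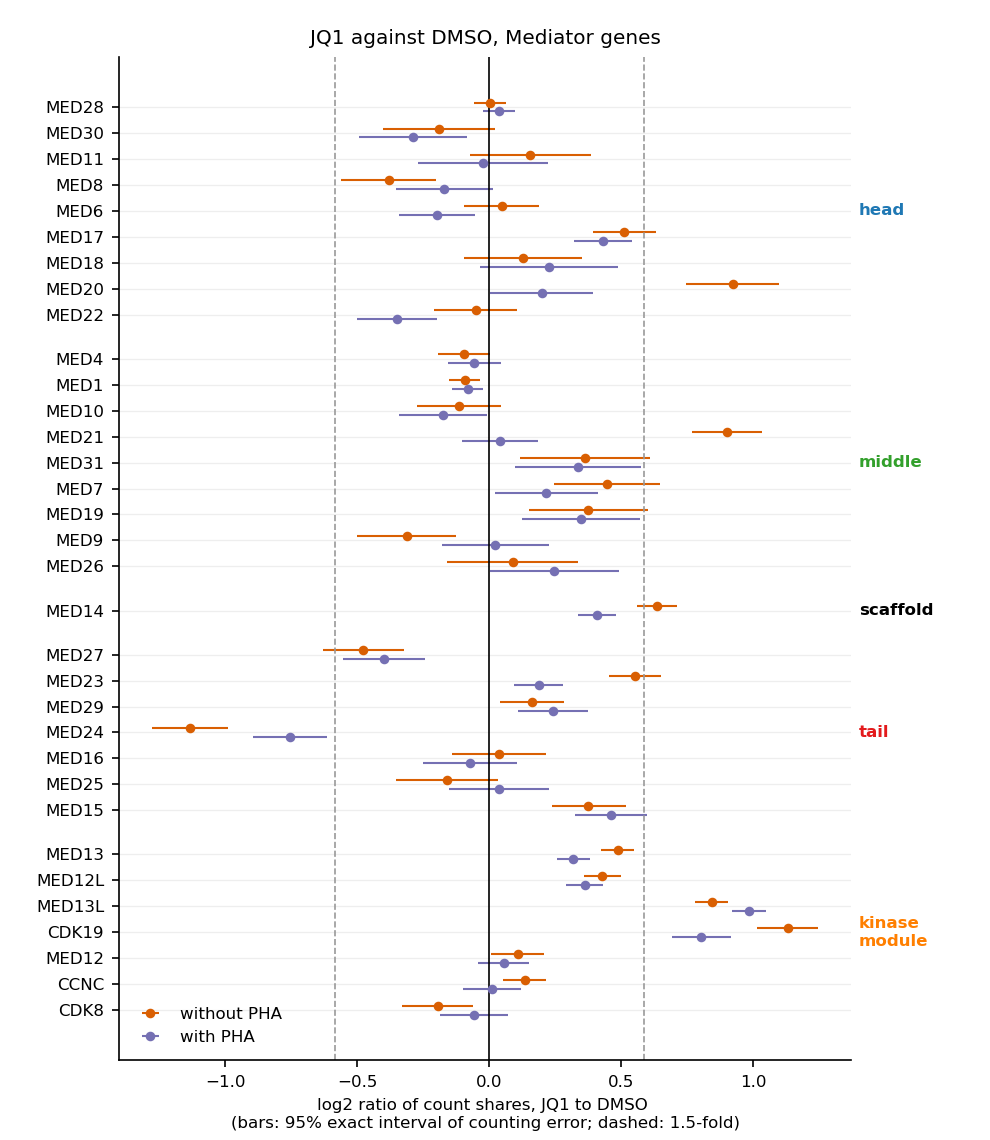
Log2 ratio of each gene's share of counts, JQ1 to DMSO, without PHA (orange) and with PHA (purple), with bars for the 95% exact interval of counting error and dashed lines at 1.5-fold. CDK19 and MED13L lie beyond the right line and MED24 beyond the left line in both comparisons, and MED20 and MED21 lie beyond the right line only without PHA.

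Counted over all members, the shares called with JQ1 were near or below those of all genes. Without PHA, 5 of 33 were at least 1.5-fold higher (MED20, MED21, MED14, CDK19 and MED13L), beside 14.8% of all genes, and 1 was lower (MED24), beside 19.3%. At 2-fold, 1 was higher (CDK19), beside 5.22% of all genes, and 1 lower (MED24), beside 8.65%. The share of members called was 15.2% for the higher genes, near the background. With PHA, 2 were at least 1.5-fold higher (CDK19 and MED13L), beside 11.7%, and 1 lower (MED24), beside 17.8%, and at 2-fold 0 were higher, beside 3.69%, and 0 lower, beside 8% of all genes. In both JQ1 comparisons, 2 genes were at least 1.5-fold higher, beside 7.82%, and 1 lower, beside 13.2%.

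The median log2 ratio of FPKM of the members was 0.12 without PHA, where the median of all genes was -0.01, and 0.04 with PHA, where it was -0.02. Of the 33 members, 22 lay above 0 without PHA (66.7%, all genes 49.2%) and 21 with PHA (63.6%, all genes 48.5%). The sign was the same in both comparisons for 28 members and for 82.8% of all genes. The kinase module had medians of 0.43 and 0.32, the head 0.05 and -0.02, the middle 0.08 and 0.04, and the tail 0.04 and 0.04. In the kinase module the interval of the count ratio lay above 0 for 6 of 7 genes without PHA, all but CDK8, and for 4 of 7 with PHA (CDK19, MED13L, MED13 and MED12L). In the lists described below it did so without PHA for 9 of 10 Mediator partners and transcriptional kinases. It did so for 12 of 33 general transcription factors and 2 of 12 polymerase subunits. No such count was made over all genes, so none is read as particular to the kinase module. The difference between the JQ1 ratios with and without PHA had an interval on 1 side of 0 for 11 of 33 members. It was above 0 for MED9, MED24 and MED13L, and below 0 for MED6, MED20, MED22, MED21, MED14, MED23, MED13 and CDK19. The same count was not made over all genes, so it is not read as particular to Mediator.

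**Figure D4:**
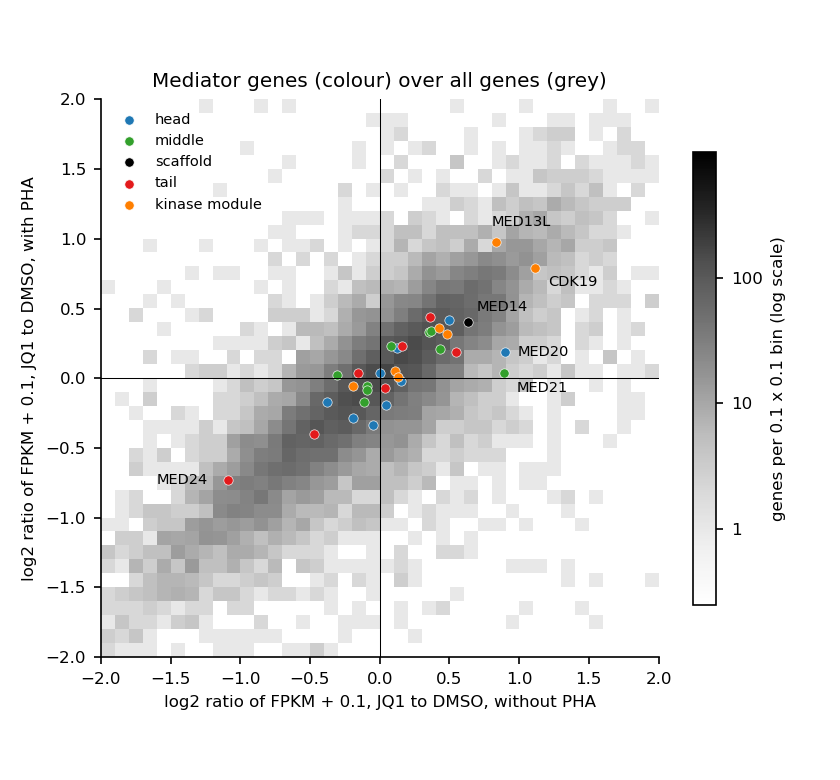
Log2 ratio of FPKM + 0.1 with JQ1, without PHA on the x axis and with PHA on the y axis, for the 33 Mediator genes coloured by module over the genes of the 11503 that fall within the axes, in grey (shading is the number of genes per bin on a log scale). CDK19, MED13L and MED24 lie far from the origin along the diagonal, and MED20 and MED21 lie at about 0.9 on the x axis and near 0 on the y axis.

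Fewer members were called for PHA than for JQ1, as were fewer genes overall. In DMSO, 0 of 33 were at least 1.5-fold higher, beside 5.59% of all genes, and 1 was lower (CCNC), beside 3.83%. In JQ1, 0 were higher, beside 2.58%, and 3 were lower (CCNC, MED20 and MED21), beside 3.05%. At 2-fold, no member was called in DMSO, beside 2.1% of all genes higher and 1.19% lower, or in JQ1, beside 1.04% higher and 1.03% lower. CCNC was the only member past 1.5-fold in both PHA comparisons, where 0.617% of all genes were lower in both, and 0 members were higher in both, beside 0.652%. The median of the members was 0.03 in DMSO (all genes -0.01) and -0.03 in JQ1 (all genes -0.00). The 16 members not chosen to be described in full, some of them named above as partners, were within 1.5-fold in all 4 comparisons by the rule of that choice. Among them MED18 had the lowest PHA ratios, -0.46 (-0.71 to -0.21) in DMSO and -0.36 (-0.60 to -0.13) in JQ1, and MED23 the highest in DMSO, 0.34 (0.23 to 0.44).

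**Figure D5:**
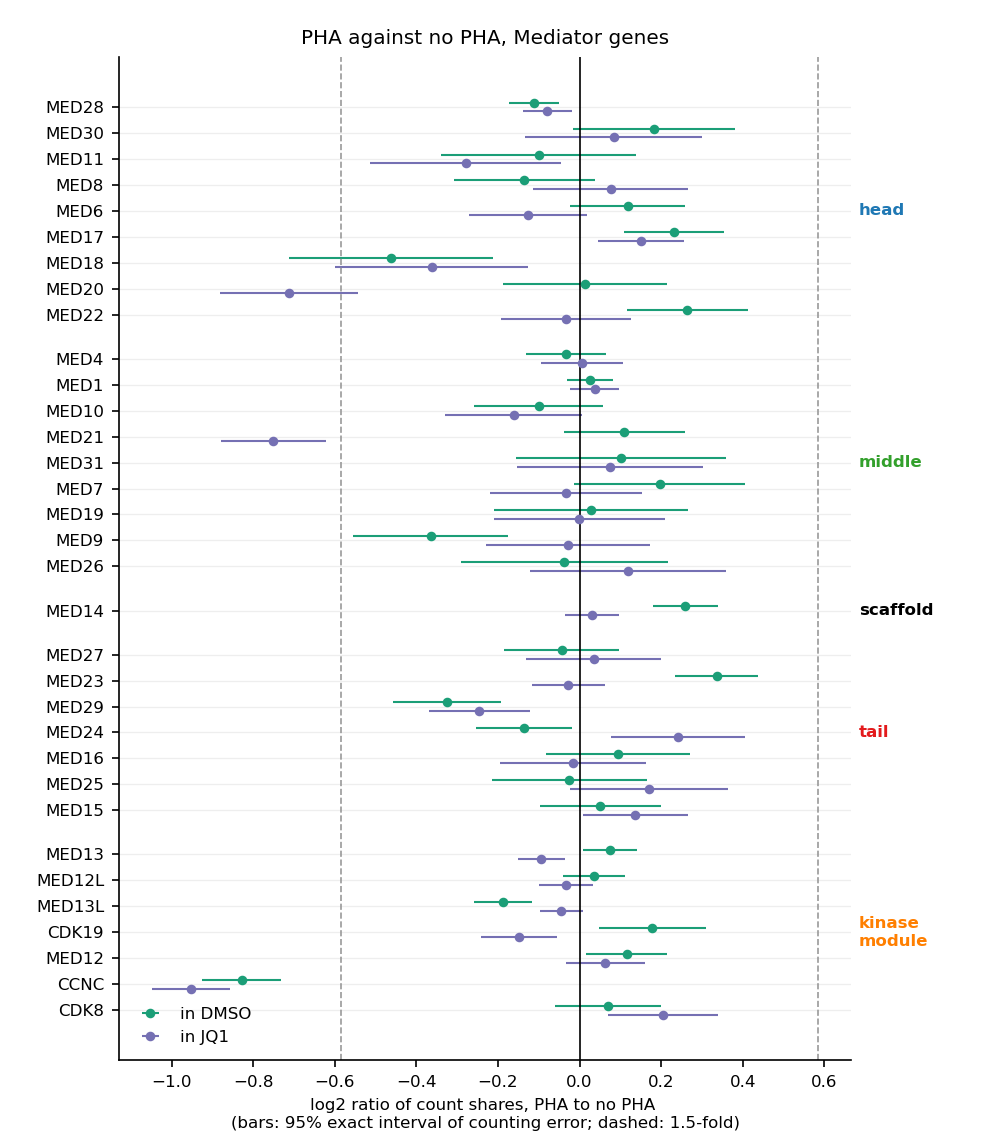
Log2 ratio of each gene's share of counts, PHA to no PHA, in DMSO (green) and in JQ1 (purple), with bars for the 95% exact interval of counting error and dashed lines at 1.5-fold. CCNC lies beyond the left line in both comparisons, and MED20 and MED21 lie beyond it only in JQ1.

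Promoters are shown for the 4 genes that passed 1.5-fold in both comparisons of an agent, and for CDK8, to set it beside its paralog. Each is a RefSeq window on GRCh38.p14, from 250 bases before to 50 bases after the upstream-most annotated start, written 5′ to 3′ on the gene's strand. Capitals mark the CCAAT box, a core promoter element bound by the factor NF-Y, read as CCAAT or, on the other strand, ATTGG.
CDK19: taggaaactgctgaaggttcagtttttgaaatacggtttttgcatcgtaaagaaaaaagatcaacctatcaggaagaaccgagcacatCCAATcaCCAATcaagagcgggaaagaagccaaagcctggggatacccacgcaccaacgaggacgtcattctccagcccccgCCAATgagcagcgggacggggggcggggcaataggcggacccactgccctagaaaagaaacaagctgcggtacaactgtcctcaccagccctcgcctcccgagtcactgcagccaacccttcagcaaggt
CDK8: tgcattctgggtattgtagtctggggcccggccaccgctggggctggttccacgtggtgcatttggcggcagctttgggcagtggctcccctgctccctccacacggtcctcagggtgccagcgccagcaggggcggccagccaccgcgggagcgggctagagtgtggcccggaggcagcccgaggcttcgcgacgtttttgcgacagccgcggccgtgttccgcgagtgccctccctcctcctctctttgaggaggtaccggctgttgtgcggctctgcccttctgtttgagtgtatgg
MED13L: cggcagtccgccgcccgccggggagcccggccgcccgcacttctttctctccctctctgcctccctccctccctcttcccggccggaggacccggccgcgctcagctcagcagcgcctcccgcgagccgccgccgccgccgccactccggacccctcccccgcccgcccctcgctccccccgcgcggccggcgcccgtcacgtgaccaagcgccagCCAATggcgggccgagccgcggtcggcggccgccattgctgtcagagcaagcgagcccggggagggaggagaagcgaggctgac
MED24: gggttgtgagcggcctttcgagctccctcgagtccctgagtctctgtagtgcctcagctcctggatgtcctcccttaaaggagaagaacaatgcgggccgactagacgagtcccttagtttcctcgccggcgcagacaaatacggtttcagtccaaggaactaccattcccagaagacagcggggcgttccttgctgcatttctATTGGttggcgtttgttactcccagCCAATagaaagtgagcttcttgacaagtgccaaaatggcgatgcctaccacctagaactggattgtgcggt
CCNC: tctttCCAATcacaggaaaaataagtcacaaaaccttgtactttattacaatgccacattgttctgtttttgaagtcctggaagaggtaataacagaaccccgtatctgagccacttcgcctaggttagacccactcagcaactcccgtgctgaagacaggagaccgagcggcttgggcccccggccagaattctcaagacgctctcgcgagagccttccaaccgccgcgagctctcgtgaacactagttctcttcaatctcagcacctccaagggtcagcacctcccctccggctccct
The windows are chr6:110815806-110816105 for CDK19, chr13:26253879-26254178 for CDK8, chr12:116277644-116277943 for MED13L, chr17:40054359-40054658 for MED24, which lies inside the gene as the files place it, and chr6:99568765-99569064 for CCNC. The CCAAT box occurred 3 times in the CDK19 window, 2 times in that of MED24, 1 time each in those of MED13L and CCNC, and 0 times in that of CDK8. RefSeq lists 3 windows for CDK19 and 2 for CCNC, and the others were not searched.

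Windows were matched for 25 of the 33 genes, and not for MED6, MED8, MED13, MED14, MED21, MED22, MED28 and MED30. The members were read in their upstream-most window only. The 35097 windows set beside them are all distinct windows listed, several for some genes, with no filter on expression. The shares below are therefore not from matched sets. Over the 25, CCAAT was found in 10 (40%), against 34.6% of all 35097 windows. The ETS core CCGGAA was found in 9 (36%), against 17.3%, and the GC box GGGCGG in 15 (60%), against 44.9%. The E-box CACGTG was found in 8% (all windows 7.25%), the AP-1 motif TGANTCA in 8% (7.71%), the NFAT core GGAAA in 68% (61.2%) and TATAAA in 8% (11.5%). All motifs were read on both strands, and matches can share bases, as the ETS and NFAT cores do in GGAA and as the NFAT core on the other strand can with CCAAT. The median number of CpG was 21 per window in the members and 14 in all windows, and the median GC content was 58.0% and 58.7%. These are counts of letters and say nothing of binding.

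Of the 7 genes of the kinase module, 5 span at least 100 kb, and CCNC and MED12 do not. Ratios with JQ1 were on the whole higher in longer genes. Across the 11503 genes, Spearman's rho between the log2 JQ1 ratio and the gene's span was 0.14 without PHA and 0.11 with PHA, and across the 33 members it was 0.25 and 0.29. A relation to the span was also seen with PHA, though it was weak across all genes in JQ1. Between the log2 PHA ratio and the span, rho across all genes was 0.14 in DMSO and 0.03 in JQ1. Across the members it was 0.25 in DMSO and 0.24 in JQ1. The length by which the FPKM were divided gave another picture across the members. There rho was 0.28 and 0.36 for the JQ1 ratios without and with PHA, and 0.05 and 0.09 for the PHA ratios in DMSO and JQ1. Across all genes it was 0.15 and 0.14 for JQ1, and 0.12 and 0.04 for PHA. These are descriptions across genes of the same libraries, which are not independent. The 6 members that span at least 100 kb (CDK19, CDK8, MED12L, MED13, MED13L and MED27) had median JQ1 ratios of 0.45 without PHA and 0.34 with PHA, where all 1736 genes of that span had 0.18 and 0.12. The 27 shorter members had 0.11 and 0.04, where the 9767 shorter genes had -0.05 and -0.05. CDK8 and MED27, at -0.19 and -0.47 without PHA, were the 2 long members below 0.

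Other parts of the transcription machinery were read from lists of 33 general transcription factor genes, 12 RNA polymerase II subunits and 10 Mediator partners and transcriptional kinases, all of which passed the filter. The counts below stand beside 14.8% of all genes at least 1.5-fold higher and 19.3% lower with JQ1 without PHA, and 11.7% and 17.8% with PHA, and with the few genes in each list no share is read as particular to it. Of the general transcription factors, 3 were at least 1.5-fold higher with JQ1 (GTF2B, GTF2A1 and TAF8) and 2 lower (TAF9 and GTF2H4), with a median of -0.00. With PHA, 2 were higher and 2 lower, with a median of 0.13. POLR2A, the catalytic subunit of the polymerase, had 38.5 FPKM in DMSO, 86.5 in JQ1, 42.5 in DMSO + PHA and 91.6 in JQ1 + PHA, 2.24-fold and 2.15-fold higher with JQ1. POLR2I, a small subunit, had 4.67, 1.88, 3.35 and 2.02 FPKM, 2.41-fold and 1.63-fold lower. POLR2A was the only one of the 12 subunits at least 1.5-fold higher in either JQ1 comparison, 2 were lower without PHA and 1 with PHA, and the medians were -0.17 and -0.14. Of the 10 partners, 2 were higher and 0 lower in each JQ1 comparison, with medians of 0.36 and 0.27. With PHA, 0 genes of the 3 lists were called in DMSO, and in JQ1 TAF9 was the only one, 2.17-fold higher against the JQ1 library in which it was low.

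Exons of other genes overlap those of many members. In GENCODE release 44 the exons of 20 of the 33 members overlap those of another gene, and how the counting used strand is not given in the sources used here. MED31 shares 58.4% of its exon bases with TXNDC17 on the opposite strand, a gene with 286 to 373 counts. MED20 shares 24.9% of its exon bases with an annotated gene on the same strand that is not used here. The genes in the files that overlap CCNC, MED13L and MED14 had at most 2 counts, CDK8, CDK19 and MED21 overlap no other gene's exons, and pseudogenes named after members had at most 4 counts.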

How the data were processed

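RNA was sequenced from 4 Jurkat cultures, 1 library per condition. The authors aligned reads to GRCh38 with Hisat2 2.0.4. The submitters' notes also list TopHat2 2.0.9 and Cufflinks 2.1.1. The counter, its strand setting and the annotation release are not given in the sources used here. The deposited values are raw counts per gene, and FPKM that the authors computed. FPKM equalled count over a gene length and the library's total, with an implied length that varied by at most 4.65e-05 of itself over 12689 genes. The filter kept genes whose mean was 1 FPKM or more. Log2 ratios used FPKM + 0.1. A gene was called at 1.5-fold, or at 2-fold. Ratios of shares of counts carry 95% exact (Clopper-Pearson) intervals, and the difference of 2 such ratios a normal interval from the counts. The members' share of all counts carries a 95% Wilson score interval. Scripts ran in Python 3.11.15 (numpy 2.4.6, pandas 2.3.3, scipy 1.17.1, matplotlib 3.10.9) and were tested on simulated data. Alternatives used TMM factors of edgeR 4.0.16 and DESeq2 1.42.0 size factors under R 4.3.3, other pseudocounts, other filters, centring, and no overlapping genes. The members and gene lists were chosen with earlier results of these data known. Members described in full were those past 1.5-fold with an interval excluding 0 in any comparison, the paralog pairs, CCNC, MED14, and the highest and lowest of each module. Of the other lists, genes past 2-fold with JQ1 were named with their values, and a named result of these lists is not reported here. The partners in dimers or tail groups (MED16, MED18, MED23 and MED7) and the members with overlapping exons were named after their values were seen.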

Additional observations from a re-analysis of the deposited data

Results flagged for a closer look

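Of the members, 3 had PHA ratios of opposite sign in DMSO and in JQ1, each with an interval of counting error that excluded 0. The difference was not tested against replicates, since each condition was 1 library. On the log2 scale the ratio of count shares, PHA to no PHA, was 0.18 in DMSO and -0.15 in JQ1 for CDK19, 0.0753 and -0.0941 for MED13, and -0.14 and 0.24 for MED24. All were under 1.5-fold. Whatever the interval, the PHA ratio of FPKM had the same sign in DMSO and in JQ1 for 16 of the 33 members and for 55.5% of all genes. Intervals on opposite sides of 0 were not counted over all genes, so these 3 are not read as particular to Mediator.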

How the results depend on the processing

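The alternatives for single ratios were other pseudocounts and scalings, which cannot turn the sign of a ratio past 1.5-fold here. Of 13 such ratios under 78 alternatives, 2 came under 1.5-fold. A pseudocount of 1 brought MED24 to -0.55 with JQ1 in the presence of PHA and MED20 to -0.56 in JQ1 + PHA against JQ1. Counts of called members changed as follows. Members higher with JQ1 without PHA were 6 under DESeq2 size factors and under FPKM rescaled to a common total, and 4 with a mean FPKM of at least 5. Members lower in JQ1 + PHA against JQ1 were 2 with a pseudocount of 1 or with a mean FPKM of at least 5. With a mean FPKM of at least 5, which left fewer genes, 0 members were lower in either JQ1 comparison, and with a pseudocount of 1, 0 were lower with JQ1 in the presence of PHA. At 2-fold, 1 member was higher with JQ1 without PHA, and with PHA 0 were higher and 0 lower. At 2-fold, 0 were lower in either PHA comparison. Without the 20 members that have overlapping exons (chosen after seeing the data), 2 were higher and 0 lower with JQ1, 1 higher and 0 lower with JQ1 in the presence of PHA, 0 lower with PHA in DMSO and 1 lower with PHA in JQ1. MED24 was left out there for a microRNA gene that covers 1.12% of its exon bases. The median over the members moved by less than the median one-sided width of the members' counting intervals in 40 of 40 alternatives. It ran from 0.10 to 0.20 with JQ1 and from 0.01 to 0.10 with JQ1 in the presence of PHA, and scaling moved the median of all genes by at most 0.07. The filters at a mean FPKM of at least 0.1 and without a limit kept the same 33 members, so they could not move it. The width is that of single genes, so the count of 40 is a weak check of a median.

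The paralog shares depended on the length used. By counts, in DMSO, JQ1, DMSO + PHA and JQ1 + PHA, the share was 48.4, 70.1, 50.3 and 64.8% for CDK19, 63.7, 68.7, 62.4 and 67.2% for MED12L, and 48.7, 54.8, 44.2 and 55.7% for MED13L. By counts per base of the union of exons (chosen after seeing the data), it was 36.8, 59.3, 38.5 and 53.3% for CDK19, 67.9, 72.6, 66.7 and 71.3% for MED12L, and 26.8, 31.9, 23.4 and 32.6% for MED13L.

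No paired analysis was possible because each condition was 1 library and the labels carry no shared replicate numbers, and for the same reason no condition was computed with a library left out. Counting error set the precision, from 234 to 6242 counts per gene. Variation between cultures was not measured, so differences near 1.5-fold, such as that of MED14, have no known error beyond counting.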
